A study of Mus musculus with 6 samples.

Results

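The cytosolic ribosomal protein genes encode the protein subunits of the ribosome, and they were followed here in mouse melanoma tumours. They were taken by name: Rpl or Rps followed by a digit, or Rplp0, Rplp1, Rplp2 or Rpsa, without the Rps6k kinases and without names holding -ps. Of 88 rows with such a name, 85 reached a mean of 1 FPKM across all 6 libraries and were kept, 51 of the large and 34 of the small subunit. The whole table holds 20938 genes, of which 11241 reached that mean. FPKM are fragments scaled to transcript length and library depth. The tumours grew from B16F10 cells, a melanoma line of C57BL/6 origin, subcutaneously in the left hind leg of male C57BL/6 mice aged 6 weeks, and bulk RNA was sequenced from tissue collected on day 19. A first group of 3 libraries is labelled control and a second group of 3 comes from cells labelled as overexpressing YKL-40, a secreted chitinase-like protein. All 6 carry the genotype label WT, and all tumours come from a single cell line. The labels state neither what the control cells carried nor the species of the YKL-40 sequence. Chil1, the mouse gene of YKL-40, was at 0.0644, 0 and 0.0242 FPKM in the controls and was listed at 0 in all 3 YKL-40-labelled libraries, so the direction of every comparison rests on the labels.

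Each ribosome is built from a small subunit, which reads the messenger RNA, and a large subunit, which joins the amino acids. Each subunit combines ribosomal RNA with many different proteins, nearly all present once per ribosome, so cells make these proteins in matched amounts. Growing cells, tumour cells among them, spend a large share of their messenger RNA on them. The messages of most of these genes begin with a C followed by a run of C and T bases, the TOP motif, through which the growth-regulating kinase MTORC1 controls their translation. Single ribosomal proteins also act outside the ribosome, and loss of a copy of several of them causes Diamond-Blackfan anaemia, a failure of red cell production.

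The start of the transcript is shown for members to which the results return, because the TOP motif is a feature the name rule did not use. Each window holds 10 bases before and 20 bases from the annotated RefSeq start in assembly GRCm38.p6, on the gene's own strand, and capitals mark a run that opens with C within 4 bases of the start and continues with at least 4 bases that are C or T. The first is of Rps6 at chr4:86857348-86857377 on the minus strand, followed by Rps24 at chr14:24490668-24490697 on the plus strand, Rps15a at chr7:118116128-118116157 on the minus strand, Rpl12 at chr2:32961702-32961731 on the plus strand, Rplp2 at chr7:141447641-141447670 on the plus strand and Rpl22l1 at chr3:28805498-28805527 on the plus strand. The last, Rps19bp1 at chr15:80264287-80264316 on the minus strand, holds no such run.
Rps6: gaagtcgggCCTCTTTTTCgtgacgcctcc
Rps24: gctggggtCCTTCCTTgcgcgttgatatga
Rps15a: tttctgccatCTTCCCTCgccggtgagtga
Rpl12: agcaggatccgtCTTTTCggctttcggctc
Rplp2: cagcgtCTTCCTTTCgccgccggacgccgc
Rpl22l1: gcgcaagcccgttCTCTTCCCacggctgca
Rps19bp1: cggaagtagctcgccgcgtgtgggcggggc

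Such a run was found in 30 of the 65 members present in the promoter table (46.2%), in 17 of 39 of the large and 13 of 26 of the small subunit. Among the 9049 tested genes in that table, 1643 held one (18.2%), and 14.1% of all 32851 windows listed there did. A gene with several annotated starts, such as Rps24, counted if any of its windows held a run. The search read the gene's own strand only, and the result hangs on the annotated start, since a start set a few bases off moves the run out of reach. Rplp0, Rpl5 and Rpl7l1 held none in this window.

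Library sums ran from 468605 to 490955 FPKM, and 10900 to 11301 genes reached 1 FPKM in a library. Total read numbers are unknown, so no counting interval is given. Melanocyte markers were high in every library, with summed levels of 8670 to 10141 FPKM in the controls and 8671 to 10815 FPKM in the group labelled YKL-40 (9 of 9 markers tested). Summed markers of muscle, macrophages and T and NK cells did not overlap between the groups, and those of fibroblasts overlapped narrowly. Skeletal muscle markers summed to 52.9 to 222 FPKM in the controls against 7.98 to 35.5, macrophage markers to 60.3 to 167 against 217 to 355, T and NK cell markers to 0.462 to 1.46 against 9.18 to 33.3, and fibroblast markers to 42.2 to 251 against 239 to 423. Red blood cell markers stood at 472, 1193 and 1439 FPKM in the controls and at 550, 116 and 96.3 FPKM in libraries labelled YKL-40. Keratinocyte markers were near 0, with Krt14, Krt1 and Lor at 0 in all 6. The part of these cells in the results was not tested, and in bulk tissue fewer cells of a type and less RNA per cell cannot be told apart. One YKL-40-labelled library, replicate 1, stood apart from the other 2 of its group for most members, and the summed levels, the counts and medians of members and the groups by role are therefore also given without it.

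Large subunit members together took 6.43%, 7.16% and 6.82% of all FPKM in the control libraries and 6.75%, 5.99% and 5.58% in libraries labelled YKL-40. The groups overlapped, because YKL-40-labelled replicate 1 lay above the lowest control. Small subunit members took 4.03%, 4.50% and 4.42% against 4.56%, 3.71% and 3.57%, and here replicate 1 was the highest of the 6 libraries. Both subunits together made up 11.1% ± 0.616 (SD, n = 3) of a control library and 10.1% ± 1.13 (SD, n = 3) of a YKL-40-labelled library. Without YKL-40-labelled replicate 1, that group's mean share was 9.42%, with 5.78% for the large and 3.64% for the small subunit. In FPKM, the large subunit summed to 32389 ± 2108 in the controls and 29183 ± 3538 in the group labelled YKL-40, and the small subunit to 20545 ± 1437 and 18870 ± 3067 (SD, n = 3 each). The balance between the subunits was similar in the groups: the summed level of the large divided by that of the small was 1.60, 1.59 and 1.54 in the controls and 1.48, 1.62 and 1.56 in libraries labelled YKL-40. That ratio was 1.58 ± 0.0280 and 1.55 ± 0.0689 (SD, n = 3 each), a difference smaller than the spread within the group labelled YKL-40.

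**Figure D1:**
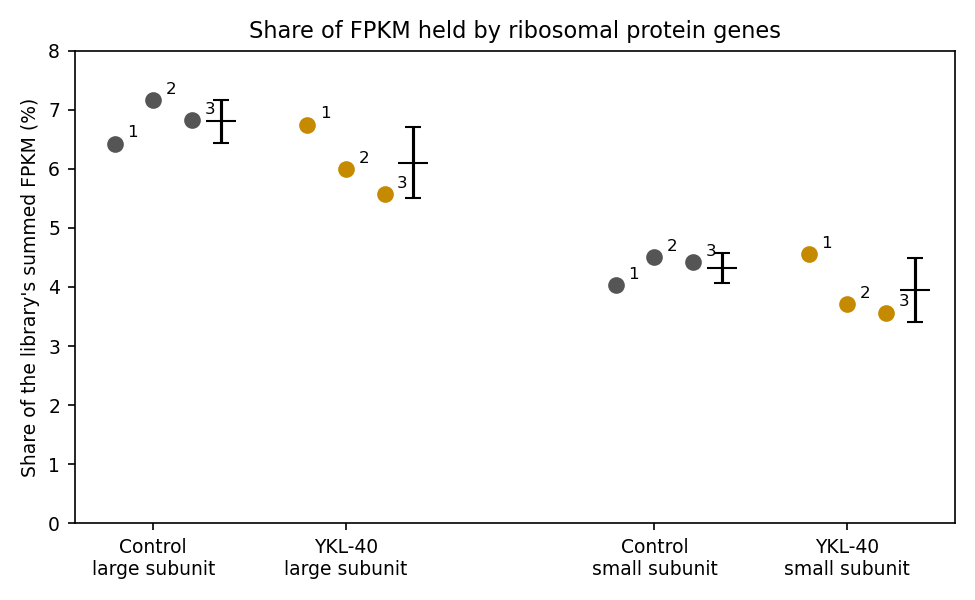
Share of each library's summed FPKM (percent, vertical axis from 0) taken by the large and by the small subunit members, with 1 point per library and the mean ± SD of the 3 libraries of each group. YKL-40-labelled replicate 1 sits at 6.75% and 4.56%, within or above the control points, and the other 2 YKL-40-labelled libraries sit below all controls.

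Most members had slightly lower levels in libraries labelled YKL-40, and none passed the test over all genes. Differences are the mean log2(FPKM + 1) of the YKL-40-labelled libraries minus that of the controls. By limma with Benjamini-Hochberg adjustment over 11241 genes, 0 of the 85 members had an adjusted p under 0.05, where 0.436% of all tested genes did (0.365% higher and 0.0712% lower), and the lowest adjusted p among members was 0.142. At an unadjusted p under 0.05, 11 members (12.9%) were lower, 7 of the large and 4 of the small subunit, where 9.24% of all tested genes were lower. In the other direction 0 members were higher, where 8.71% of all tested genes were. For 13 members, 8 of the large and 5 of the small subunit, all YKL-40-labelled values lay below all controls, where 14.2% of tested genes did so, and for 0 members they lay above, where 10.3% did. The share of members in the lower direction was thus near that of all genes by either count, while none appeared in the higher direction.

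The median difference was -0.14 for the large subunit and -0.07 for the small subunit, against -0.04 for all tested genes. Differences were below 0 for 67 of 85 members, 41 of 51 and 26 of 34, where 57.8% of all tested genes were below 0. The 1786 other tested genes averaging at least 50 FPKM had a median of -0.02. With median of ratios scaling, 59 of 85 members were below 0, where 51.3% of all tested genes were, and the medians were -0.10 and -0.035. On leaving out single libraries the medians ranged from -0.26 to -0.078 and from -0.22 to -0.00056, nearest 0 without YKL-40-labelled replicate 3. The standard errors of the members had a median of 0.14, and for 82 of 85 the 95% interval of the difference lay within 1 of 0 on the log2 scale. A doubling of any of those 82 lies outside its interval. Whether the 3 libraries per group stem from separate mice is not stated by the labels, so all p-values cover only the spread among these libraries.

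**Figure D2:**
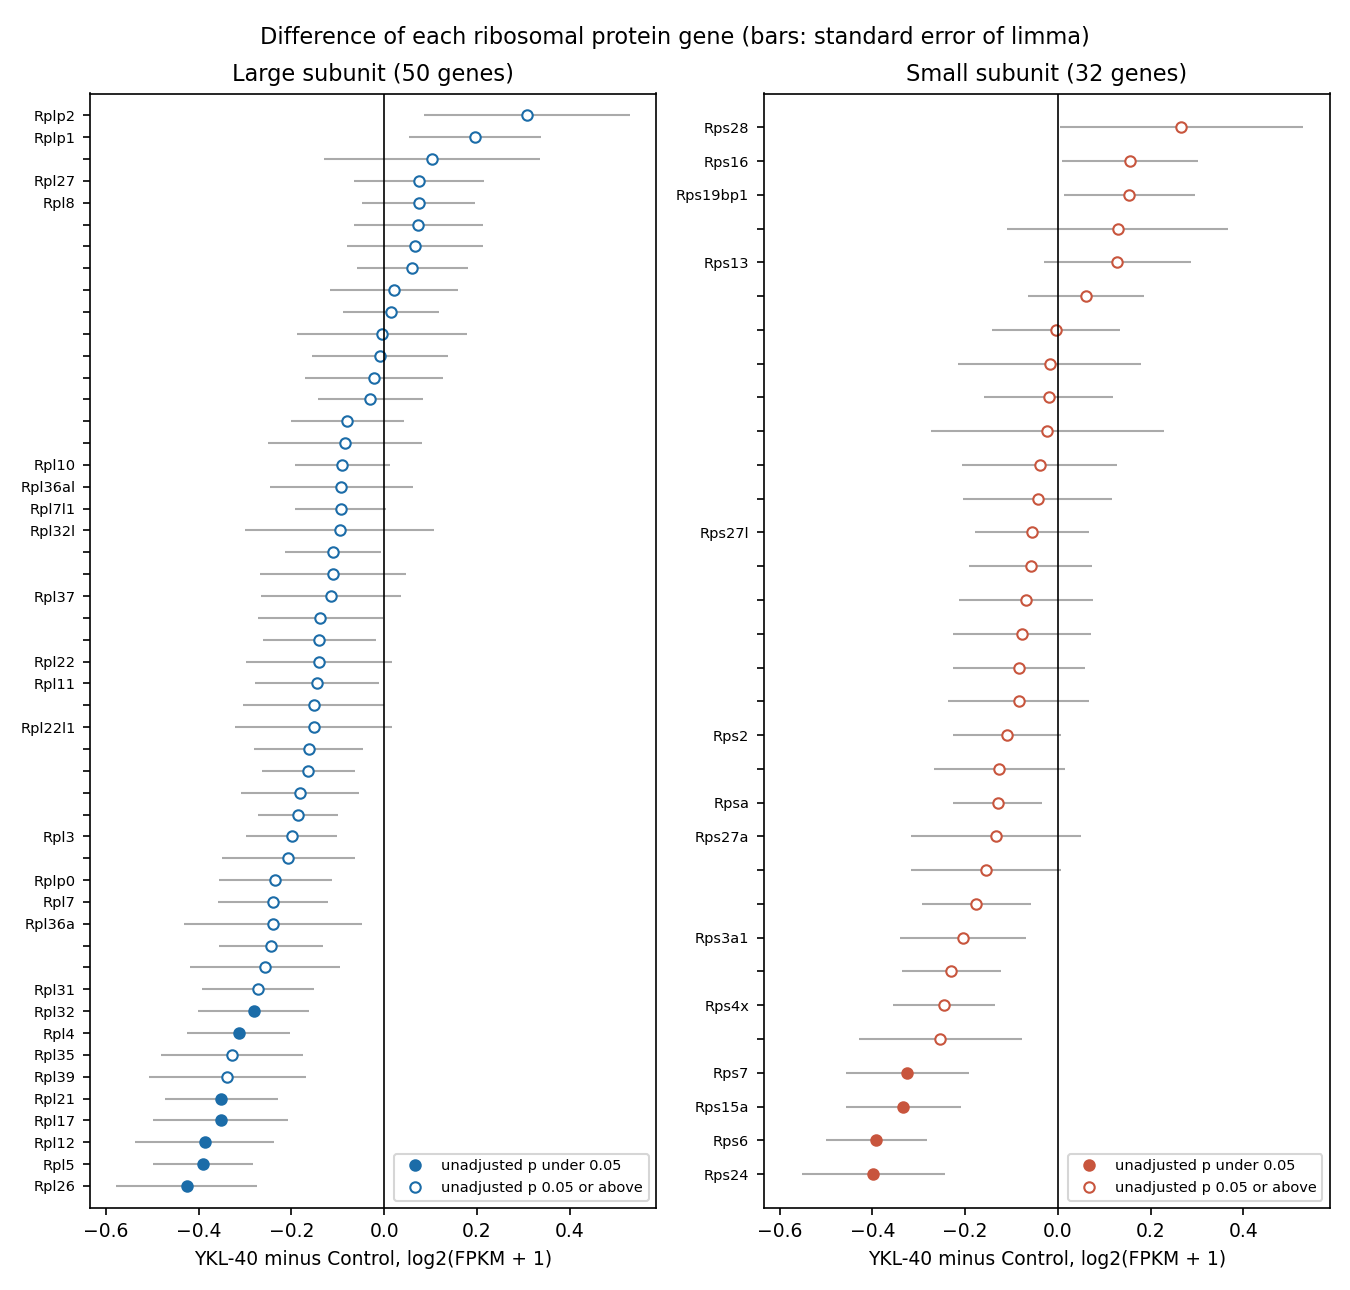
Difference in mean log2(FPKM + 1), YKL-40-labelled minus control, for 82 members in order of size, 50 of the large and 32 of the small subunit, with bars of 1 SE; the 3 members left out are Rps27, Rps27rt and Rpl37rt, whose values jump between copies, and names are printed only for members of the naming rule or of low p. The points run from -0.43 (Rpl26) to 0.31 (Rplp2), and most lie below the line at 0.

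Leaving out YKL-40-labelled replicate 1 raised these counts. That library was chosen from the members' own values, and it was the highest of the 6 for 48 of 85. Its omission lowers the group mean of each of those members, so the rise was partly built in, here and wherever it is left out below. Without that library, 34 of 85 members had an unadjusted p under 0.05 and were lower, 22 of the large and 12 of the small subunit, where 6.83% of all tested genes were. The groups were then separate, with lower YKL-40-labelled values, for 51 members (19.3% of all genes), 80 of 85 differences were below 0 (56.7% of all genes), and the medians were -0.26 and -0.22. Still 0 members passed the adjustment over all genes, where 0.0178% were called lower, with a lowest adjusted p of 0.144 by limma. The number of members lower at an unadjusted p under 0.05 was 11 without control replicate 1 (5.8% of all genes), 2 without control replicate 2 (5.61%) and 5 without control replicate 3 (8.34%). It was 3 without YKL-40-labelled replicate 2 (11.3%) and 2 without replicate 3 (6.21%), with 0 members called in each. Rpl5 and Rps6 were among them whichever library was left out. Differences below 0 numbered 73, 60 and 59 of 85 without control replicates 1, 2 and 3 (55.6%, 58.3% and 58.3% of all genes). They numbered 54 without YKL-40-labelled replicate 2 (58.4%) and 52 without replicate 3 (57.1%), near the share of all genes. When limma weighted the libraries by their own spread (array quality weights of 0.560, 2.85 and 0.973 for the controls and 0.476, 0.581 and 2.33 for the YKL-40-labelled libraries), 14 members had an adjusted p under 0.05, all lower, 9 of the large and 5 of the small subunit, where 3.97% of all genes were called lower. These 14 were the 11 members above with Rpl31, Rpl35 and Rps4x. The highest weights went to control replicate 2, the highest library for 32 of 85 members, and to YKL-40-labelled replicate 3, the lowest for 43.

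Rps6, the small subunit protein that the S6 kinases phosphorylate after growth signals, had the lowest p of all members. It stood at 106, 126 and 117 FPKM in the controls and at 96.8, 88.1 and 80.6 FPKM in libraries labelled YKL-40. The groups did not overlap, and the difference was -0.39 ± 0.11 (SE; adjusted p = 0.142 by limma). It was among the 14 members called with array quality weights.

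Rpl5 and Rpl11 form, with the 5S ribosomal RNA, the particle that can bind MDM2, the ligase that degrades p53. Rpl5 stood at 861, 978 and 806 FPKM in the controls and at 714, 667 and 632 FPKM in libraries labelled YKL-40, so that every YKL-40-labelled value was below every control (difference -0.39 ± 0.11, SE; adjusted p = 0.142 by limma). Rpl11 was at 477, 572 and 567 FPKM against 569, 461 and 437 FPKM. Its groups overlapped, with YKL-40-labelled replicate 1 level with the 2 higher controls, and its difference was -0.14 ± 0.13 (SE).

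Proteins line the peptide exit tunnel and its rim, through which the new chain leaves the ribosome. Of 9 such members, 9 had differences below 0, also under each other scaling tried, where 78.8% of all members and 57.8% of tested genes did, with a median of -0.31. At an unadjusted p under 0.05, 3 were lower (Rpl4, Rpl17 and Rpl26), against 12.9% of members and 9.24% of tested genes. Without YKL-40-labelled replicate 1, 7 of the 9 were lower at that level, against 40% of members and 6.83% of tested genes. The median of the 9 was then -0.37. Rpl4, which reaches into the tunnel, was at 716, 794 and 684 FPKM in the controls and 543, 653 and 571 FPKM in libraries labelled YKL-40. The groups did not overlap, and here YKL-40-labelled replicate 1 was the lowest library of all (difference -0.31 ± 0.11, SE; adjusted p = 0.210 by limma). Rpl26, at the tunnel rim and also known to bind the p53 message, was at 390, 505 and 473 FPKM against 395, 342 and 285 FPKM. Its lowest control lay just under YKL-40-labelled replicate 1 (difference -0.43 ± 0.15, SE; adjusted p = 0.216 by limma). Rpl39, a small protein of the tunnel wall, stood at 156, 185 and 162 FPKM against 170, 109 and 125 FPKM, with a difference of -0.34 ± 0.17 (SE) and overlapping groups. Rpl19, at -0.14, was the member of the group nearest 0.

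Other large subunit members of low p were Rpl21, Rpl12 and Rpl32. Rpl21 was at 1062, 1084 and 1051 FPKM in the controls, a narrow range, and at 977, 812 and 734 FPKM in libraries labelled YKL-40 (difference -0.35 ± 0.12, SE; adjusted p = 0.205 by limma). Rpl12, part of the stalk base to which the stalk proteins attach, was at 506, 631 and 538 FPKM against 500, 433 and 354 FPKM. For both genes the groups did not overlap, for Rpl12 by a margin of a few FPKM. Rpl32, 1 of the 3 most abundant large subunit members, was at 1227, 1451 and 1352 FPKM against 1246, 1059 and 1017 FPKM, overlapping through YKL-40-labelled replicate 1 (difference -0.28 ± 0.12, SE; adjusted p = 0.277 by limma). Rpl3, Rpl8 and Rpl10, which lie around the peptidyl transferase centre and the tRNAs, had differences of -0.20, 0.07 and -0.09.

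In the small subunit, Rps15a, Rps24 and Rps7 followed Rps6 in order of p. Rps24, a Diamond-Blackfan anaemia gene, was at 1184, 1314 and 1216 FPKM in the controls and at 1183, 815 and 857 FPKM in libraries labelled YKL-40. Replicate 1 of the latter was about level with the lowest control, and the other 2 lay far below (difference -0.40 ± 0.15, SE; adjusted p = 0.244 by limma). Without that library the difference was -0.57. Rps15a was at 961, 1134 and 968 FPKM against 914, 798 and 722 FPKM (difference -0.33 ± 0.12, SE; adjusted p = 0.230 by limma). Rps7, needed to process the small subunit's RNA, was at 871, 1139 and 957 FPKM against 865, 789 and 707 FPKM (difference -0.32 ± 0.13, SE; adjusted p = 0.265 by limma). In Rps24, Rps15a and Rps7 alike the groups were separate, and replicate 1 was the YKL-40-labelled library nearest the controls. Among 15 members linked to Diamond-Blackfan anaemia, 4 were lower at an unadjusted p under 0.05, against 12.9% of members and 9.24% of tested genes, and the median was -0.08. Among 13 members of the small subunit head, which meets the tRNAs and the messenger, 0 were, with a median of -0.04. Without YKL-40-labelled replicate 1 the counts were 6 of 15 and 3 of 13, against 40% of members and 6.83% of tested genes. The medians of the 2 groups were then -0.26 and -0.20.

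The stalk recruits the elongation factors to the ribosome, and its 3 proteins did not share a direction. Rplp0, its base and the most abundant member of all, was at 3916, 4587 and 4179 FPKM in the controls and at 3638, 3940 and 3214 FPKM in libraries labelled YKL-40 (difference -0.23 ± 0.12, SE; adjusted p = 0.360 by limma). Rplp1, at 253, 245 and 256 FPKM in the controls, was at 358, 251 and 265 FPKM, and its partner Rplp2, at 67.4, 80.3 and 94.4 FPKM, was at 138, 77.3 and 91.6 FPKM. For both of these short proteins replicate 1 was far above every other library. Their differences were 0.20 ± 0.14 and 0.31 ± 0.22 (SE; adjusted p = 0.505 and 0.503 by limma), and without replicate 1 that of Rplp2 was 0.07.

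Small subunit members of lowest p among those with a positive difference had the same shape, though none had an unadjusted p under 0.05 by limma. Rps28 was at 62.0, 66.0 and 76.8 FPKM against 128, 58.9 and 73.2 FPKM (difference 0.27 ± 0.26, SE; adjusted p = 0.627 by limma), and without replicate 1 its difference was -0.05. Rps16 was at 781, 834 and 974 FPKM against 1153, 863 and 883 FPKM, and Rps13 at 270, 299 and 324 FPKM against 399, 265 and 323 FPKM. In each of these 3 genes the highest library was YKL-40-labelled replicate 1 and the groups overlapped. In the large subunit, Rpl27 (1055, 1267 and 1198 FPKM against 1477, 1120 and 1133 FPKM) did the same, with a difference of 0.08 that was -0.055 without that library. Rpl8, which binds near the catalytic centre, was at 633, 688 and 739 FPKM against 814, 728 and 635 FPKM.

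Among the most abundant small subunit members, Rps2 was at 1856, 2039 and 2152 FPKM in the controls and 2031, 1911 and 1669 FPKM in libraries labelled YKL-40, with a difference of -0.11. Rps27a, made as a fusion with ubiquitin, was at 1062, 1351 and 1307 FPKM against 1462, 953 and 1017 FPKM. Its replicate 1 was the highest library of the 6 and its replicate 2 the lowest, and its difference was -0.13 ± 0.18 (SE). Rps3a1 stood at 1188, 1330 and 1159 FPKM against 1271, 994 and 946 FPKM, with a difference of -0.20. Rpsa, which is also the laminin receptor of the cell surface, was at 178, 202 and 200 FPKM against 171, 188 and 171 FPKM (difference -0.13). The member of least spread over the 6 libraries was Rpl13, with a coefficient of variation of 6.5%.

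The order of the libraries was shared by most members. Of 85, 48 were highest in YKL-40-labelled replicate 1 and 32 in control replicate 2, while 43 were lowest in YKL-40-labelled replicate 3 and 27 in replicate 2. YKL-40-labelled replicate 1 was thus the highest library for more members than any other, in the group whose other 2 libraries held most of the lowest values. The map of deviations by library shows these shared columns.

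**Figure D3:**
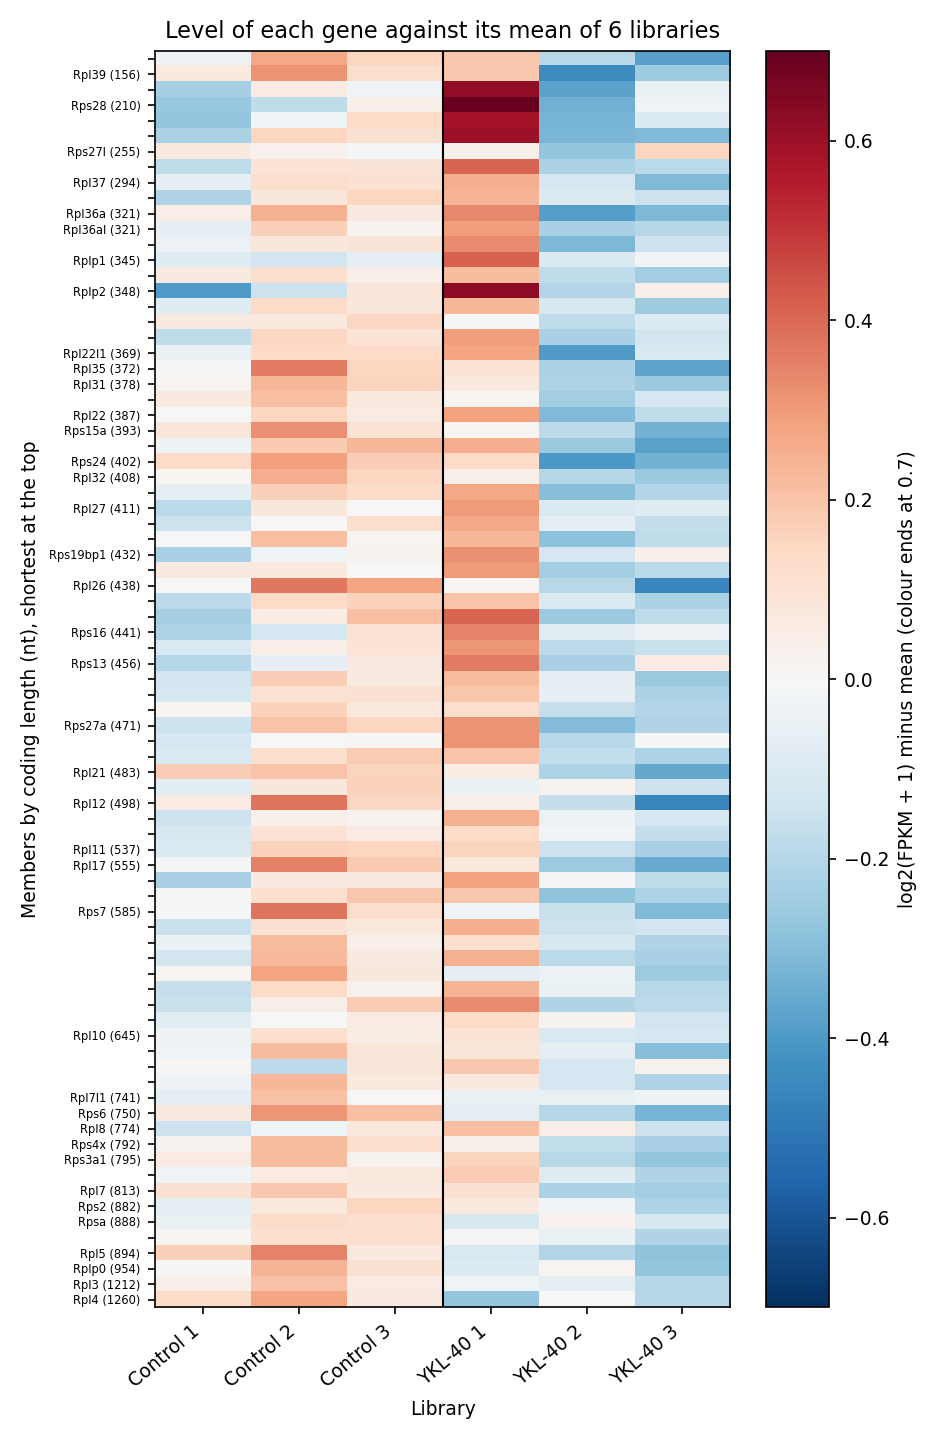
Deviation of each of 81 members from its own mean over the 6 libraries, in log2(FPKM + 1), with members of both subunits in rows ordered by coding length, named as in the plot of differences, and libraries in columns. The column of YKL-40-labelled replicate 1 is above the mean for most short genes and near or below it for the longest, and the columns of replicates 2 and 3 are mostly below the mean.

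How far replicate 1 stood from its group went with the length of the coding sequence. Among the 21 members with up to 360 coding nucleotides, its log2(FPKM + 1) exceeded the mean of the other 2 YKL-40-labelled libraries by a median of 0.51, and it was higher for 20 of 21. The median was 0.39 for the 27 members of 361 to 480 nucleotides, 0.33 for the 20 of 481 to 720, and 0.19 for the 15 from 721 on, the last a thin class whose omission leaves the order unchanged. Other tested genes showed the same order, at 0.26 (n = 403), 0.21 (n = 412), 0.10 (n = 1176) and -0.07 (n = 9049). Within every length class the members had a higher median than the other genes. Replicate 1 was chosen from the members' own high values, so this excess of members was partly built in. Across genes, Spearman's correlation of this deviation with coding length was -0.627 over 83 members and -0.413 over 11040 other genes; these genes share their libraries and are not independent. In replicate 2 it was 0.634 and 0.414, and in replicate 3 0.0954 and 0.0260; the deviations of the 3 libraries of a group sum to 0, so opposite signs are partly built in. In control replicates 1, 2 and 3 it was 0.216, 0.0753 and -0.177 over members and 0.213, -0.295 and -8.5e-05 over the other genes, so a relation with length was seen in controls too.

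**Figure D4:**
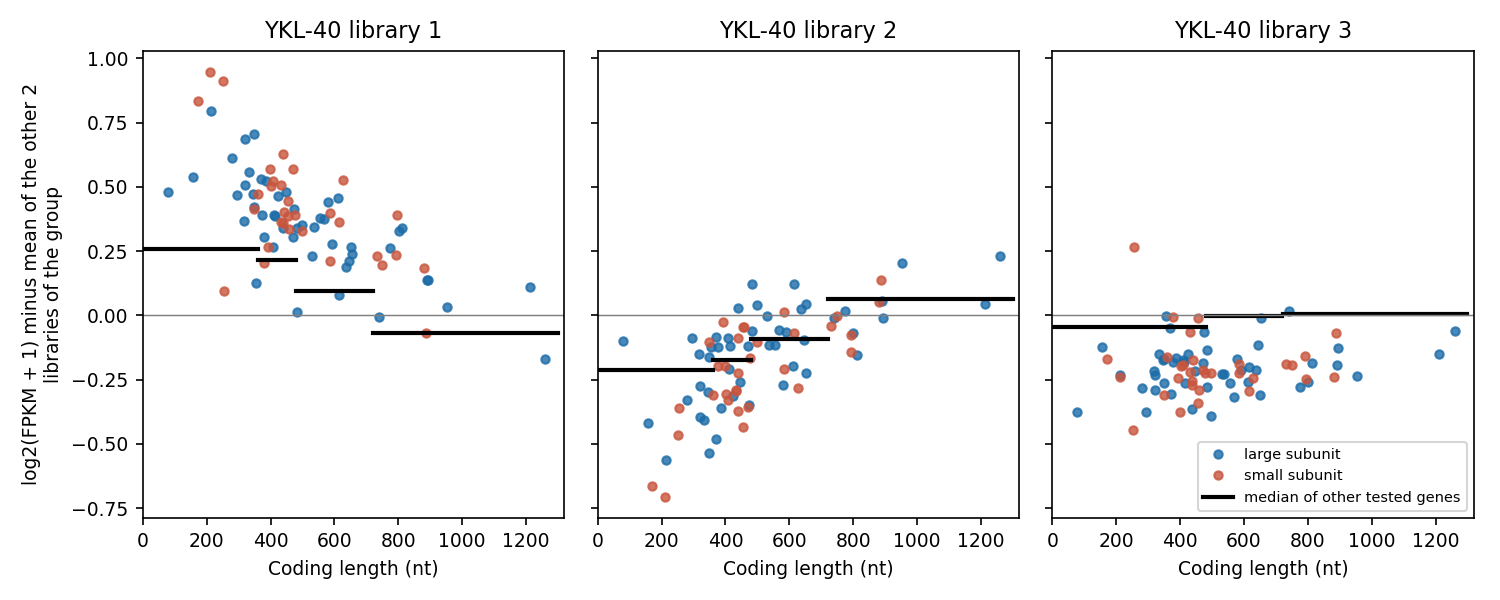
Deviation of a library from the mean of the other 2 libraries of its group, in log2(FPKM + 1), against coding length in nucleotides for 81 members (points), with the median of the other tested genes in 4 length classes (bars, the last class drawn to the end of the axis). In YKL-40-labelled replicate 1 the points fall from a median of 0.51 in the shortest class to 0.19 in the longest, and in replicate 2 they rise from -0.33 to -0.00.

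The comparison of the groups was also read by length class. With all 6 libraries, the median difference of members by class, from short to long, was -0.04, -0.13, -0.11 and -0.20, and 0, 4, 4 and 3 members were lower at an unadjusted p under 0.05. The other tested genes had medians of 0.03, 0.03, 0.01 and -0.05, and 5.71%, 5.83%, 6.04% and 9.92% of them were lower at that level. Without YKL-40-labelled replicate 1 the medians were -0.22, -0.26, -0.22 and -0.25, and the counts were 9, 15, 5 and 5, with no order by length in the medians. The shares of other genes lower at that level were then 10.5%, 7.60%, 5.37% and 6.5%. The median of the shortest members was -0.04 with that library and -0.22 without it, the widest gap of the 4 classes. The part of RNA quality or library preparation in this was not tested. By the start of the transcript, the 30 members with a TOP run had a median difference of -0.08 and the 35 without it -0.14, with 4 lower at an unadjusted p under 0.05 in each.

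Rps27 has a copy elsewhere in the genome, Rps27rt, and the values of the pair cannot be read singly. Rps27 lies on chromosome 3 (90212667 to 90213648, minus strand, GRCm38.p6) and Rps27rt on chromosome 9 (114982366 to 114982739, minus strand). Their coding sequences of 255 nucleotides are identical, so reads from within them match both. Rps27l, a paralogue that p53 is known to raise, lies on chromosome 9 too (66944624 to 66949522, plus strand) but differs from Rps27 at 61 of 255 bases (identity 76.1%). The coding sequences of Rps27 and Rps27l, as annotated in GENCODE M21, are shown because they show which of the 3 rows can be told apart by their bases. Capitals mark the bases at which these 2 differ, and the Rps27 line without regard to case is also that of Rps27rt.
Rps27: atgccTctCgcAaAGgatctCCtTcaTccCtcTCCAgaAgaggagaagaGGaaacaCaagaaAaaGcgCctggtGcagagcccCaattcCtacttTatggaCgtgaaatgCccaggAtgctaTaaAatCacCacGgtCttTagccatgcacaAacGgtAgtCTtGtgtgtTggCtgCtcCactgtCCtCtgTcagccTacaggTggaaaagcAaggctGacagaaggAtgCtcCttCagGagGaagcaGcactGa
Rps27l: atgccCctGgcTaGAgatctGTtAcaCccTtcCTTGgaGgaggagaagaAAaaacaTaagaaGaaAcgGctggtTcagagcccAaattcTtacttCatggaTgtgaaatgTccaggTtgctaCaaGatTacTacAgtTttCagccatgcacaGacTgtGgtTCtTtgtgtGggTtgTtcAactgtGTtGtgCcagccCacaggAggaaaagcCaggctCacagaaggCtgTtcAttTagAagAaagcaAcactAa

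Between these 2 sequences the longest shared run is 11 bases, and none of the 50-base stretches of Rps27 occurs in Rps27l. Rps27 was listed at 0.147, 303 and 0.113 FPKM in the controls and at 1.46, 0.132 and 241 FPKM in libraries labelled YKL-40. Rps27rt was at 499, 29.5 and 514 FPKM against 703, 413 and 29.0 FPKM. Where one was high the other was low, in 6 of 6 libraries and in both groups. Their sum was 499, 333 and 515 FPKM in the controls and 705, 414 and 270 FPKM in libraries labelled YKL-40, with a difference of -0.04 ± 0.34 (SE; adjusted p = 0.966 by limma). In each group the lowest sum was in the library where the Rps27 row was high, control replicate 2 and YKL-40-labelled replicate 3. The sum may thus also depend on which copy received the reads, which was not tested. Rps27l, which can be told apart from Rps27 and Rps27rt, was at 300, 292 and 284 FPKM against 293, 237 and 318 FPKM (difference -0.06, adjusted p = 0.841 by limma). Of the 50-base stretches of its own coding sequence, 49.0% occur in transcripts of other genes.

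**Figure D5:**
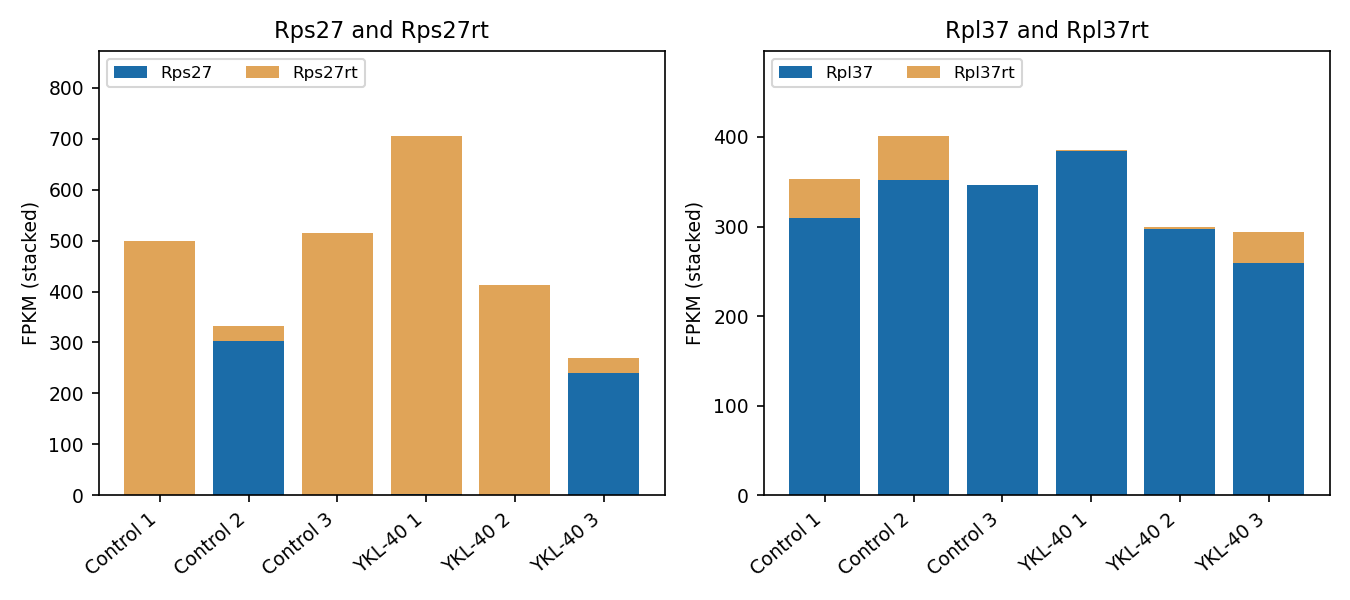
FPKM of Rps27 and Rps27rt and of Rpl37 and Rpl37rt in each of the 6 libraries, as stacked bars starting at 0, so that the full height is the sum of a pair. The Rps27 row holds most of the sum in control replicate 2 and YKL-40-labelled replicate 3, and the Rps27rt row in the other 4 libraries.

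Rpl37 and Rpl37rt, on chromosomes 15 and 5, share 81.2% of the 50-base stretches of the Rpl37 coding sequence. Rpl37 was at 309, 351 and 347 FPKM in the controls and 384, 297 and 260 FPKM in libraries labelled YKL-40, and Rpl37rt at 43.3, 49.2 and 0.358 FPKM against 0.929, 2.07 and 34.5 FPKM. Rpl37rt was thus either above 30 FPKM or below 3 FPKM, in libraries of both groups. The sums, 353, 401 and 347 FPKM against 385, 299 and 294 FPKM, gave a difference of -0.18 ± 0.13 (SE; adjusted p = 0.514 by limma). Rpl37rt and Rpl32l are pseudogenes in GENCODE M21 and protein coding in RefSeq. Shared sequence is common in this family: 81 of 83 members share at least 1 such 50-base stretch with the transcript of another gene, and 70 share more than 50% of theirs. The sources used here do not state how reads with several matches were assigned, so the level of any single member is uncertain. Sums over members can be affected too where the other gene lies outside the name rule, as Rpl34-ps1 does for Rpl34.

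Other members named for a relative had differences of the same sign as that relative, none past the test. Rpl22, an RNA-binding protein at the outer face of the large subunit, was at 220, 245 and 229 FPKM in the controls and 267, 177 and 194 FPKM in libraries labelled YKL-40, and its paralogue Rpl22l1 at 46.0, 52.3 and 52.3 FPKM against 57.7, 35.8 and 43.9 FPKM. Their differences were -0.14 and -0.15, the latter 0.0077 without YKL-40-labelled replicate 2. Rpl7 and Rpl7l1 had differences of -0.24 and -0.09, and Rpl36a and Rpl36al of -0.24 and -0.09. The groups overlapped for each of these 6 genes. Rpl10l was at 0 in all 6 libraries, and Rpl39l and Rpl3l, the latter known from muscle, had means of 0.24 and 0.90 FPKM, below the limit of 1 FPKM. The members nearest above it were Rpl32l, with a mean of 5.17 FPKM, and Rps19bp1, at 6.06, 7.11 and 7.40 FPKM against 9.30, 6.60 and 7.46 FPKM. Rps19bp1 encodes a partner of Rps19 and no ribosomal subunit, and entered by its name.

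Genes that work with these proteins but fall outside the name rule had medians in the same range, read against 9.24% of tested genes lower and 8.71% higher at an unadjusted p under 0.05. Of 8 elongation factor genes 1 was lower and 0 higher (median -0.17). It was Eef1a1, which delivers tRNAs to the ribosome, at 1094 ± 65.9 FPKM in the controls and 834 ± 101 in the group labelled YKL-40 (SD, n = 3 each), a difference of -0.40. Of 28 initiation factor genes 9 were lower and 1 higher (median -0.14), with Eif3a at -0.44 and Eif5b at -0.42. Of 12 genes known for a TOP motif, 6 are also on the other lists, and of the other 6 the level was reached by Nap1l1 alone, at -0.27. Npm1, the nucleolar chaperone, which is on the TOP and the assembly list, was at -0.36. None of these genes passed the adjustment over all genes with the 6 libraries weighted equally. With array quality weights, 1 elongation factor, 4 initiation factor and 4 TOP list genes did, where 1111 of all 11241 tested genes did. As the lists overlap, a gene can count more than once.

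Among 47 genes of ribosome assembly in the nucleolus, 11 (23.4%) were lower and 0 higher at an unadjusted p under 0.05, with a median of -0.15. With array quality weights 8 of them passed the adjustment, where 1111 of 11241 tested genes did. Without YKL-40-labelled replicate 2, 1 of them passed, where 198 of 11242 tested genes were called higher and 40 lower. Tsr1, needed for the last steps of the small subunit, was at 69.5 ± 6.43 FPKM in the controls and 49.3 ± 2.69 FPKM in the group labelled YKL-40 (SD, n = 3 each), with separate groups, a difference of -0.48 and an adjusted p of 0.0845 by limma. Noc3l had a difference of -0.43. Of 15 genes of RNA polymerase I, which makes the large ribosomal RNAs, 4 were lower and 1 higher (median -0.10), with its subunits Polr1b at -0.44 and Znrd1 at 0.41. The 19 genes of MYC and MTORC1 control had 1 lower and 2 higher, Mnt at 0.38 and Max at 0.31 (median -0.09). Of 12 genes of ribosome rescue and quality control, 4 were lower (median -0.15), with Nemf at -0.35 and Abce1, which splits ribosomes for reuse, at -0.29. With array quality weights, 3 RNA polymerase I genes and 1 rescue gene passed the adjustment, where 1111 of 11241 tested genes did. Without YKL-40-labelled replicate 1 the medians of the lists from elongation to rescue lay between -0.21 and -0.09.

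In the list of ribosome stress and the p53 arm, 1 of 11 genes passed the test over all genes. Ccng1, a cyclin gene and known p53 target, fell from 108 ± 7.62 FPKM in the controls to 55.5 ± 5.25 FPKM in the group labelled YKL-40 (SD, n = 3 each; difference -0.95, adjusted p = 0.0303 by limma). It was lower in 3 of 3 YKL-40-labelled libraries, and that call was lost when control replicate 1 or 2 or YKL-40-labelled replicate 1 or 3 was left out, with no filter on low values, and with a skeletal muscle covariate. In all, 3 of the 11 were lower and 0 higher at an unadjusted p under 0.05, with a median of -0.19, and Aen, an exonuclease gene that p53 induces, had a difference of -0.53. The number of genes of this list that passed the adjustment was 3 with array quality weights, where 1111 of 11241 tested genes did. The 13 mitochondrially encoded genes on the lists were not used here.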

How the data were processed

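Bulk tumour RNA for 6 libraries (3 control, 3 labelled YKL-40) was prepared with the TruSeq v2 kit from 2 µg of RNA, per the labels' protocols, a kit without strand information. The authors deposited FPKM values, 1 per gene and library. Build mm10 and the tools HISAT2, StringTie, bcl2fastq 2.0, limma and DESeq2 are listed in the submitters' processing notes, with no roles. Read totals, the annotation, and the handling of reads with several matches are not given in the sources used here.

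From the deposited FPKM, log2(FPKM + 1) was computed, which understates changes of low genes. Genes averaging 1 FPKM or more were tested with limma 3.58.1 (R 4.3.3; variance trend, two-sided), with p-values adjusted by Benjamini-Hochberg over 11241 genes at 0.05. With 3 against 3 libraries an exact permutation test cannot go below p = 0.1, so none is given. All 6 columns were used, 0 library pairs were identical, and the procedure was tested on simulated data. Markers and lists were summed or counted without a set test.

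The members and lists were chosen with earlier results of these data known. Named members are, per subunit, the 3 most abundant and the 4 of lowest p in each direction, with members named for a paralogue, their parents and a short list (stalk, 5S particle, Rps6, Rps27a, Rpsa, Rps19bp1). Named list genes are the 2 of lowest p per list. Rpl12, Rpl19, Rpl13 and others outside this rule were chosen after their values were seen. The values of 2 genes are not reported here. Transcript starts came from RefSeq GRCm38.p6, and coding sequences from GENCODE M21. Alternatives were other pseudocounts and filters, scalings, array quality weights, a muscle covariate, the replicate block and leaving out each library; summing copy rows was added after seeing the data.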

Additional observations from a re-analysis of the deposited data

How the results depend on the processing

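The counts depended on the setting, and the cause was not tested. Members with an adjusted p under 0.05 numbered 0 in all alternatives except 14 with array quality weights. Members at an unadjusted p under 0.05 numbered 11 in the reported fit, 39 with array quality weights and 17 with libraries scaled to an equal sum without the ribosomal protein genes. All of these were lower, where 9.24%, 15.8% and 10.4% of all tested genes were lower at that level. The members numbered 5 with median of ratios scaling, 5 with no filter and 3 with the skeletal muscle covariate, settings for which the share of all genes is not given here. On leaving out a library they numbered 2 to 34, where 5.61% to 11.3% of all tested genes were lower. Members with separate groups numbered 5 with median of ratios scaling and 13 to 51 on leaving out a library. On leaving out a library, 18.4% to 25.5% of all tested genes had separate groups with lower YKL-40-labelled values. Genes called among all tested numbered 49, but 1111 with array quality weights, 1 with no filter, 0 with the muscle covariate, and 0 to 238 on leaving out a library. The medians, sums and ratio moved by less than the spread between libraries in every alternative.

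No sign was seen that the replicate numbers pair the libraries. The deviations of libraries of the same number correlated at -0.0832, -0.185 and 0.00170, and no library correlated best with its own number. With so few libraries per group, whose deviations sum to 0, these correlations cannot settle whether the design was paired. With the replicate block, members at an unadjusted p under 0.05 numbered 4, all lower, where 6.31% of all tested genes were lower. All genes called then numbered 120.

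Of 38 named members, 11 changed sign in some alternative, and none of these passed the test in any. With array quality weights Rpl27 was at -0.059, Rpl8 at -0.040, Rps27l at 0.036 and Rps27rt at -0.16. With the muscle covariate Rpl27 was at -0.046, Rps2 at 0.025 and Rps27 at -9.07. On leaving out a library, differences ran from -0.33 to 0.0077 for Rpl22l1, -0.055 to 0.14 for Rpl27, -0.30 to 0.033 for Rpl32l, -0.27 to 0.011 for Rpl37, -0.013 to 0.17 for Rpl8, -0.021 to 0.27 for Rps13, -2.13 to 2.96 for Rps27, -0.14 to 0.065 for Rps27l, -1.30 to 1.44 for Rps27rt and -0.049 to 0.50 for Rps28.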

Other observations

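Rpl34-ps1 and Rpl31-ps12, processed copies that the name rule leaves out, were measured too. Rpl34-ps1 stood at 161, 184 and 175 FPKM in the controls and at 234, 126 and 128 FPKM in the YKL-40-labelled libraries, with a difference of -0.15 ± 0.23 (SE; adjusted p = 0.771 by limma). It showed the order seen for the short members, with YKL-40-labelled replicate 1 the highest of the 6 libraries. Rpl31-ps12 was at 11.8 ± 1.90 FPKM in the controls and 10.5 ± 2.31 FPKM in the YKL-40-labelled group (SD, n = 3 each), with overlapping groups.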
